A study of Mus musculus with 4 samples.

Results

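The neurons without Lhx1 of day 11 gastruloids were 252 of the 8730 day 11 cells kept here, which is 2.89% of them (95% Clopper-Pearson interval 2.55 to 3.26%), and 252 of 31330 barcodes in the whole series. A cell was chosen when it held at least 2000 UMIs (counted RNA molecules), a share of mitochondrial transcripts under 20%, at least 1 UMI of at least 3 of the 4 neuronal genes Elavl3, Ina, Stmn2 and Dcx, no UMI of Lhx1 and fewer than 2 UMIs of Atoh1. The measured values of these 6 genes chose the cells, so all levels of these cells against other cells of the same library are given as descriptions, with no test. The study made gastruloids, embryo-like aggregates, to follow cardiac and skeletal muscle formation. The sequenced gastruloids came from wild type Zx1 mouse embryonic stem cells. They were treated with a Wnt agonist, then with bFGF, VEGF and ascorbic acid from day 4, and kept in N2B27 medium afterwards. Single cells were sequenced with the 10x Genomics 3' kit, with 1 library for day 4, 1 for day 5, 1 for day 6 and 1 for day 11, each from pooled gastruloids. With 1 library per day there is no replicate check, so every interval below covers counting error only, and neither the variation between gastruloids nor that between cultures can be given.

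In the dorsal spinal cord, neurons are born in ordered classes, each marked by transcription factors. Lhx1 and Lhx5 with Pax2 mark classes that mostly become inhibitory neurons, which release GABA or glycine. Tlx3, Lmx1b and Prrxl1 mark an excitatory class that releases glutamate, while Barhl1, Barhl2, Lhx2 and Lhx9 mark the dorsal-most excitatory class, whose progenitors use Atoh1. A neuron without Lhx1 is therefore defined by an absence, and its own class has to be read from other genes.

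A sequence is shown first for Ttc9b, a gene of the tetratricopeptide repeat family that was among the 12 genes with the highest ratio of these neurons to the other day 11 cells. Its promoter holds the letters of an RE1 element, the site bound by the repressor Rest, which keeps neuronal genes silent in non-neuronal cells. The window runs from 250 bases before to 50 bases after the start site, at chr7:27653674-27653973 on the + strand of GRCm38.p6, from RefSeq. Capitals mark the match, which lies on the opposite strand 18 to 32 bases after the start site.
Ttc9b: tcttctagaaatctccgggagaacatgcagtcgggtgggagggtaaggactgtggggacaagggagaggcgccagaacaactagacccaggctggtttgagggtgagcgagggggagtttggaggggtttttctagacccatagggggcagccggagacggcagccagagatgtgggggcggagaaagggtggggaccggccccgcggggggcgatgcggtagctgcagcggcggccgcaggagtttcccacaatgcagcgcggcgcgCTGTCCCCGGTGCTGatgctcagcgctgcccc
The motif searched was CAGCACC, any 2 bases, then GGACAG, on both strands. It was found in 12 of 32851 promoters (0.0365%) and in none of the 45 promoters of the pan-neuronal and choosing genes in the table. Ttc9b stood at 90.7 CPM (UMIs pooled over the cells of a set and scaled to the usual common total) in the neurons without Lhx1 against 2.77 CPM in the other day 11 cells. Fbll1, another gene whose promoter held the motif, stood at 26.6 against 0.997 CPM, whereas Lca5 (16.3 against 14.6) and Ogdhl (5.68 against 5.42) hardly differed. Rest itself was at 40.8 CPM in the neurons and 97.5 CPM in the other cells, and at 21.3 and 98.6 CPM without the high doublet scores described below. The Lhx1-positive neurons, also described below, held Ttc9b at 83.2 CPM and Fbll1 at 29.7 CPM, so neither gene was particular to the neurons without Lhx1. The motif search was made after the values had been seen. A match is a description of letters, not a binding site.

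The boundary of the choice was examined next. All 4 choosing genes were detected in 192 of the 252 neurons and 3 of them in the other 60, while 106 further cells with 2 of the 4, no Lhx1 and at most 1 Atoh1 UMI lay just outside. Of the 567 cells with at least 3 of the 4 genes, 267 held Lhx1 and fewer than 2 Atoh1 UMIs (the Lhx1-positive neurons), and 48 held 2 or more Atoh1 UMIs. Among the Lhx1-positive neurons, 26 held exactly 1 Lhx1 UMI and 31 held 2, with a median of 6 and a maximum of 29. Within the chosen neurons, 8 held 1 Atoh1 UMI and the other 244 held none.

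An Lhx1 count of 0 can also be a missed transcript. Genes that accompany Lhx1 were therefore counted: Lhx1os, transcribed beside Lhx1, Lhx5, its close relative, and Pax2. At least 1 of the 3 was detected in 37 of the 252 neurons without Lhx1 (14.7%) and in 262 of the 267 Lhx1-positive neurons (98.1%). Lhx1os alone was detected in 21 and in 237 cells, respectively. Among neurons of both sets, the Lhx1-positive share was 69.2% of 13 cells below 5000 UMIs (38.6 to 90.9%) and 54.2% of 238 cells up to 10000. It was 47.1% of 189 up to 20000 and 50.6% of 79 above, so it was not higher in deeper cells. Depth goes with the high doublet scores described below. Neurons without Lhx1 had a median of 24481 UMIs with such a score and 9832.5 without. The shares by depth were not computed without these cells, and missed transcripts were not tested.

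Depth was close to that of the Lhx1-positive neurons and lower than that of the neural progenitors. The neurons without Lhx1 held 2671 to 114798 UMIs with a median of 10380.5, against medians of 9782 in the Lhx1-positive neurons, 15357 in the neural progenitors and 12167.5 in all other day 11 cells. Their median mitochondrial share was 3.23% against 2.36% in the other cells, and their ribosomal protein gene share was 15.2% against 25.8%. A high doublet score, the mark of a droplet that may hold more than 1 cell, was given to 40 of the 252 (15.9%), and these 40 held 30.9% of their UMIs. Markers of another cell type (at least 3 genes of a list with at least 3 UMIs each) were present in 39 of the 252, with cardiomyocyte genes in 19, mesenchyme genes in 23, skeletal myoblast genes in 2, endothelial genes in 2, endoderm genes in 1 and haematopoietic genes in none. Summed cardiomyocyte markers reached 4071 CPM in these neurons and 14890 CPM in the other cells, with all 11 markers lower, and 1878 CPM without the high scores. Summed mesenchyme markers reached 364 against 1163 CPM, and 83.3 CPM without the high scores. Of the 9 haematopoietic markers 6 had no UMI. Summed endothelial markers reached 180 CPM against 142 CPM in the Lhx1-positive neurons, and 225 against 64.9 CPM without the high scores, and 1 cell held 97.9% of the UMIs of the endothelial gene Cldn5. Summed endoderm markers reached 310 CPM against 10.6 CPM in the Lhx1-positive neurons, and 445 against 11.3 CPM without the high scores. The 1 neuron with endoderm markers had no high doublet score. The part of these cells in the levels below was not tested, and key levels are given with and without them.

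The neuronal label was checked with Rtn1, a reticulon of the neuronal endoplasmic reticulum that the choice did not use. Rtn1 ranged from 0 to 113 UMIs per cell with a median of 19 and was detected in 246 of the 252 neurons. Its level was 1480 CPM (interval 1441 to 1518) against 51.2 CPM in the other day 11 cells, 92.5 CPM in the neural progenitors and 1258 CPM in the Lhx1-positive neurons. Rtn1 was also detected in 7.88% of 482 cells carrying endothelial markers, whose median depth was 25403 UMIs. After thinning to 5000 UMIs per cell Rtn1 was detected in 93.1% of 248 neurons and 2.11% of 474 endothelial marker cells. Whether the endothelial share of Rtn1 measures free RNA was not tested.

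Against the other day 11 cells, 10643 genes had a mean of the 2 levels of at least 5 CPM. Of these, 12.6% were at least 2-fold higher in the neurons without Lhx1 and 10.9% were at or below 0.5 of the level of the other cells. The choice used this contrast, so the counts only describe it. All 33 pan-neuronal genes tested that were not used in the choice were higher, with a median ratio of 15.5 against 1.06 over all genes. Stmn3, a stathmin that controls microtubule growth, stood at 770 against 24.5 CPM, Tubb3, the neuronal beta tubulin, at 1706 against 82.6 CPM, Gng3, a G protein gamma subunit, at 354 against 10.8 CPM and Scg3, a secretory granule protein, at 134 against 4.37 CPM.

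The machinery of release was present as well. Of 25 genes of synaptic vesicles and release, 23 were at least 2-fold higher than in the other cells, beside 12.6% over all genes. Cplx2 and Rab3b lay between the limits. Snap25, a protein that takes part in vesicle fusion, was detected in 107 of the 252 neurons at 45.5 CPM against 2.82 CPM. Syt1, the calcium sensor of release, stood at 104 against 10.2 CPM and Syp, a vesicle membrane protein, at 26.6 against 1.91 CPM. Of 26 ion channels and receptors 20 were higher and 2 lower, beside 12.6% and 10.9% over all genes. Among the higher were the glutamate receptor subunit Gria2 (111 against 17.4 CPM) and the sodium channel Scn3a (69.0 against 6.16 CPM). The chloride exporter Slc12a5, which appears as neurons mature, was at 6.97 CPM and was found in 24 cells, while the importer Slc12a2 was at 17.8 CPM. Most of these genes were alike in the Lhx1-positive neurons. Against that set, 2 of 29 release genes were higher and 1 lower. Of 31 channels and receptors 4 were higher and 1 lower there, beside 2.3% and 1.87% over all genes.

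Neuronal differentiation is known to exchange splicing factors and chromatin remodelling subunits. Among 19 genes of the splicing and RNA-binding switch, 14 were higher and 1, Rest, was lower than in the other cells. Over all genes 12.6% were higher and 10.9% lower in that comparison. Srrm3 and Srrm4, which drive neuronal microexons, were at 89.4 against 3.63 CPM and 89.9 against 12.8 CPM. Ptbp1, the non-neuronal splicing repressor, was at 36.4 CPM against 75.9 CPM in the neural progenitors, and 25.8 against 79.6 CPM without the high doublet scores. Its neuronal paralogue Ptbp2 was at 113 and 123 CPM in the same sets. Of 12 genes of the BAF remodelling complex 7 were higher than in the other cells and 4 were higher than in the progenitors, and none passed the lower limit in either comparison. Against the progenitors, 14% of all genes were higher and 7.13% lower. The neuronal subunit Actl6b was at 47.0 CPM in the neurons and 0.101 CPM in the progenitors, where it rested on few UMIs, and the progenitor subunit Actl6a was at 108 and 188 CPM.

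The neural progenitors, 465 day 11 cells with Sox2, Hes5 and Fabp7 and at most 1 of the 4 neuronal genes, gave a comparison within the neural lineage. Of 10324 genes tested, 14% were at least 2-fold higher in the neurons and 7.13% were at or below 0.5. Their definition used the neuronal genes too. Of 27 progenitor genes 25 were lower, but Sox2, Hes5 and Fabp7 are among these and chose the progenitors, so their direction was fixed. Of those not used, the neural stem cell factor Sox3 was at 7.75 against 69.4 CPM and the dorsal progenitor factor Pax3 at 43.9 against 304 CPM. Robo3, the receptor of commissural axons, was at 62.5 against 0.101 CPM, where the progenitor level rested on few UMIs. In the Lhx1-positive neurons Robo3 was higher still, at 167 CPM. Barhl2 had no UMI in the progenitors, which makes it at least 209-fold higher when 3 UMIs are taken as their limit. All 30 cell cycle genes were lower.

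Few of these neurons appeared to be dividing. At least 3 of 10 mitotic genes were detected in 22 of 248 thinned neurons (8.87%), in 293 of 454 thinned progenitors (64.5%) and in 6.2% of 258 thinned Lhx1-positive neurons. Without the high doublet scores the count was 6 of 208 (2.88%), and among the 40 neurons with such scores it was 16 (40%). Top2a, a topoisomerase of dividing cells, was at 109 CPM in all neurons and still at 65.0 CPM without the high scores. It was detected in 28 neurons, 11 of them without a high score.

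**Figure D1:**
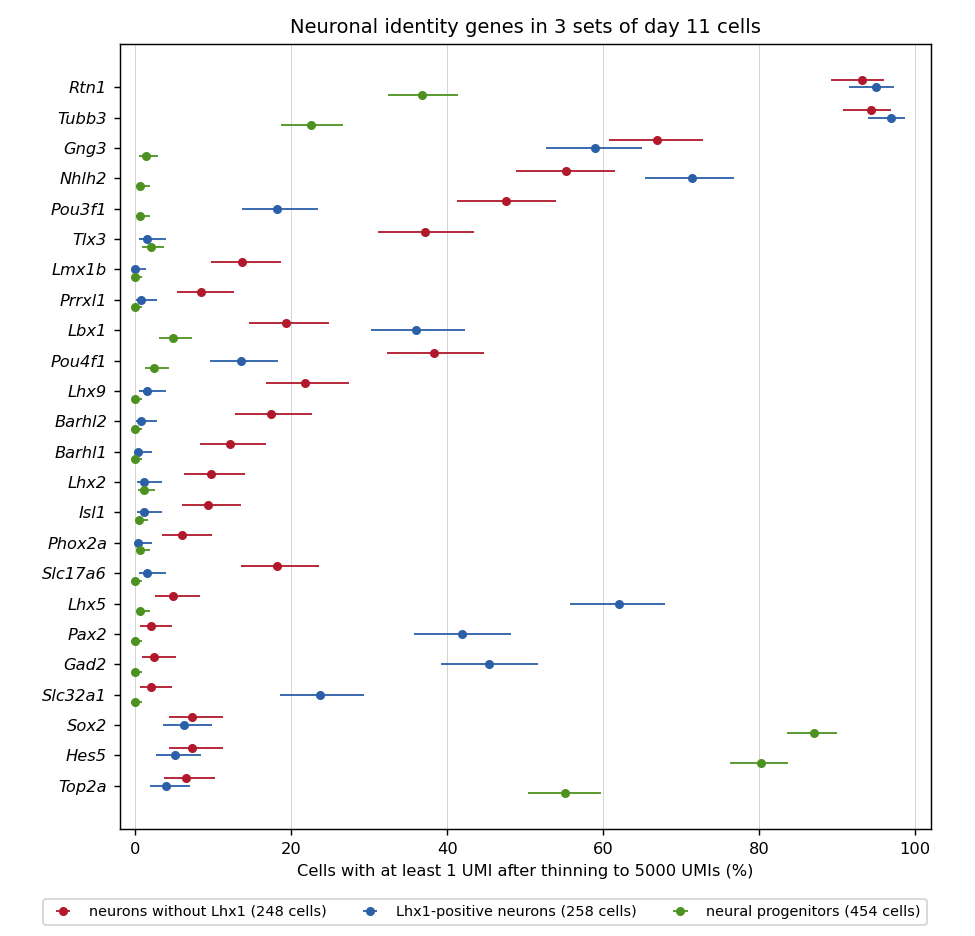
Percent of cells with at least 1 UMI of each gene after thinning to 5000 UMIs (x axis) for 24 genes (y axis) in neurons without Lhx1, Lhx1-positive neurons and neural progenitors; points are shares and lines are 95% Clopper-Pearson intervals for counting error. Rtn1 was found in 93.1% of the neurons without Lhx1 and 95% of the Lhx1-positive neurons, whereas Tlx3 was found in 37.1% and 1.55% and Lhx5 in 4.84% and 62.0%.

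The closest set was that of the Lhx1-positive neurons, and the general neuronal programme did not separate them. Of 10443 genes tested, 2.3% were at least 2-fold higher and 1.87% were at or below 0.5 in the neurons without Lhx1. None of the 33 pan-neuronal genes passed either limit, and their median ratio was 0.967 without the high doublet scores, beside 1.02 over all genes with every cell. Without the high scores 386 genes were higher and 249 lower, from 240 and 195. None of the 19 splicing switch genes, 12 BAF genes or 11 tubulin isotypes did either, except that without the high doublet scores the isotype Tubb6 was lower, at 8.22 against 25.2 CPM. Both sets were chosen by the same 4 neuronal genes, so like levels of these 4 carry no information. Among genes outside the choice, Tubb2b was at 3560 and 3556 CPM and Tuba1a at 6540 and 6576 CPM.

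Genes of class identity and transmitter were among those that differed. Of 20 dorsal interneuron factors tested, 12 were at least 2-fold higher and 7 were at or below 0.5 in the neurons without Lhx1, with Bhlhe22 between the limits. Without the high doublet scores these counts were again 12 and 7. The choice by Lhx1 used this contrast, so the counts carry no test. Other lists differed as well. Of 30 cell cycle genes 6 were higher and 0 lower, beside 2.3% higher over all genes. Without the high doublet scores 10 of 27 were higher and 0 lower. Of 14 sensory neuron genes 6 were higher and 0 lower, and without the high scores 5 and 2 of 13.

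Tlx3, the selector of the excitatory fate, was detected in more of these neurons than any other of the 12 higher factors except Pou4f1. It ranged from 0 to 19 UMIs per cell and was detected in 118 neurons (46.8%, interval 40.5 to 53.2%), with a median of 3.5 UMIs in the cells that held it. Its level was 137 CPM (126 to 150) against 5.94 CPM in the Lhx1-positive neurons and 2.46 CPM in all other cells, a ratio of 23.1 (15.2 to 36.8) to the former. In thinned cells it was found in 37.1% of neurons without Lhx1, 1.55% of Lhx1-positive neurons and 0.211% of endothelial marker cells. These 252 neurons, 2.61% of the library's UMIs, held 60.0% of all Tlx3 UMIs. Without the high doublet scores the ratio of Tlx3 was 21.1.

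Partners of Tlx3 followed it. Lmx1b, a LIM homeodomain factor of the same class, was at 25.1 against 1.29 CPM, with 59 neurons positive. Prrxl1, a homeodomain factor needed for sensory relay neurons, was at 15.2 against 1.81 CPM, with 37 positive. Pou4f1, a POU factor of several excitatory and sensory neurons, was at 109 against 36.2 CPM (ratio 3.02, interval 2.49 to 3.68), with 130 positive. Lbx1, which the Tlx3 class shares with inhibitory classes, was lower, at 34.1 against 75.4 CPM.

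The factors of the Barhl class formed the other block. Barhl2 ranged from 0 to 14 UMIs and was detected in 68 neurons (27.0%), at 63.5 CPM (55.8 to 72.0) against 5.43 CPM in the Lhx1-positive neurons, a ratio of 11.7 (7.49 to 19.3), and at 83.0 against 4.74 CPM without the high doublet scores. Lhx9 was detected in 70 neurons at 83.9 against 6.98 CPM and Barhl1 in 42 neurons at 27.1 against 0.775 CPM. Lhx2 was detected in 34 neurons at 40.3 against 4.91 CPM. Among the 103 Atoh1-positive cells, which express Atoh1 at 2 UMIs or more and were kept out by the choice, Barhl2 stood at 78.8 CPM, Lhx9 at 105 CPM and Lhx2 at 117 CPM, while Rtn1 stood at 386 CPM.

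Further genes shared the higher level. Pou3f1, a POU factor of differentiating neurons, was at 230 against 85.0 CPM, Reln, a secreted guidance protein of the extracellular matrix, at 96.9 against 27.6 CPM and Nrn1, a neurite outgrowth protein, at 123 against 33.6 CPM. The calcium channel subunit Cacna2d1 was at 60.2 against 19.9 CPM and the receptor Ntrk3, bound by neurotrophin 3, at 56.6 against 17.8 CPM. Maf, a leucine zipper factor, was at 97.9 against 28.4 CPM, though Maf was also detected in 40.7% of endothelial marker cells. Isl1 and Phox2a were higher in few cells. Isl1 was detected in 30 neurons at 78.5 against 10.1 CPM, with 15.8% of its UMIs in 1 cell. Phox2a was detected in 26 neurons at 53.7 against 7.23 CPM, with 13.9% in 1 cell. Only 7 neurons held both, 3 of them without a high doublet score. A pair of leading genes came from single cells: Rbp4, at 178 CPM, with 96.8% of its UMIs in 1 cell, and Ramp2, an endothelial receptor partner, at 64.3 CPM with 71.1% in 1 cell.

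Transmitter genes separated the sets in opposite directions. Slc17a6, which loads glutamate into vesicles, was detected in 70 of the 252 neurons with at most 6 UMIs, at 38.7 CPM (32.8 to 45.5) against 4.91 CPM in the Lhx1-positive neurons and 0.242 CPM in all other cells. These neurons held 81.1% of the library's 185 Slc17a6 UMIs, and no UMI was found in 482 endothelial marker cells or 465 neural progenitors. Without the high doublet scores Slc17a6 was at 48.2 against 5.47 CPM and Gad2, the GABA-synthesis gene described next, at 6.35 against 132 CPM. Slc17a7, another glutamate transporter, was at 2.32 CPM and Slc17a8 had no UMI. All 5 tested GABA and glycine genes were at or below 0.5, beside 1.87% over all genes. Gad2 was at 6.72 against 106 CPM (15.8-fold lower, interval 10.6 to 24.5), Gad1 at 0.775 against 23.3 CPM and Slc32a1, the vesicular transporter of both, at 2.58 against 55.8 CPM. The glycine transporter Slc6a5 had no UMI in 252 neurons, where the limit of detection was 3 UMIs, and was at 14.2 CPM in the Lhx1-positive neurons. Gad1 was detected in 1.19% of these neurons and in 8.3% of the deeper endothelial marker cells, and in 0.806% and 1.69% after thinning. Whether the endothelial share is free RNA was not tested.

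The class factors of the Lhx1-positive set were low. Pax2 was at 3.62 against 103 CPM, Pax8, its relative, at 2.07 against 56.6 CPM and Lhx5 at 9.04 against 151 CPM. Lamp5, a membrane protein of inhibitory neurons, was at 10.6 against 196 CPM and the presynaptic protein Nrxn3 at 37.5 against 259 CPM. Tnnc2, Nppa and Fabp4, genes of muscle and endothelium, were also among the lowest ratios, yet without the high doublet scores Nppa was at 2.24 CPM in the neurons without Lhx1 and 1.82 CPM in the Lhx1-positive neurons. Tnnc2 had UMIs in only 2 of the 252 neurons.

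Neuropeptides were carried by few cells. Of 16 peptide and granule genes tested against the Lhx1-positive neurons 3 were higher and 5 lower, beside 2.3% and 1.87% over all genes. The other 8 lay between the limits. Cartpt was detected in 58 neurons at 199 against 1041 CPM, with 18.3% of its UMIs in 1 cell. Sst, somatostatin, was detected in 25 neurons at 223 against 992 CPM, with 27.8% in 1 cell. The granule genes Scg2 (33.1 against 16.3 CPM), Vgf (8.78 against 3.36 CPM) and the peptide-cutting protease Pcsk2 (32.0 against 13.7 CPM) were higher. Genes of other transmitters were rare: Slc18a3, which loads acetylcholine, was found in 14 neurons, its synthesis enzyme Chat in 4 and Th, the enzyme of catecholamine synthesis, in 12, with 50% of Th UMIs in 1 cell. Th was at 15 against 5.94 CPM in the Lhx1-positive neurons, but at 4.48 against 6.57 CPM without the high doublet scores.

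**Figure D2:**
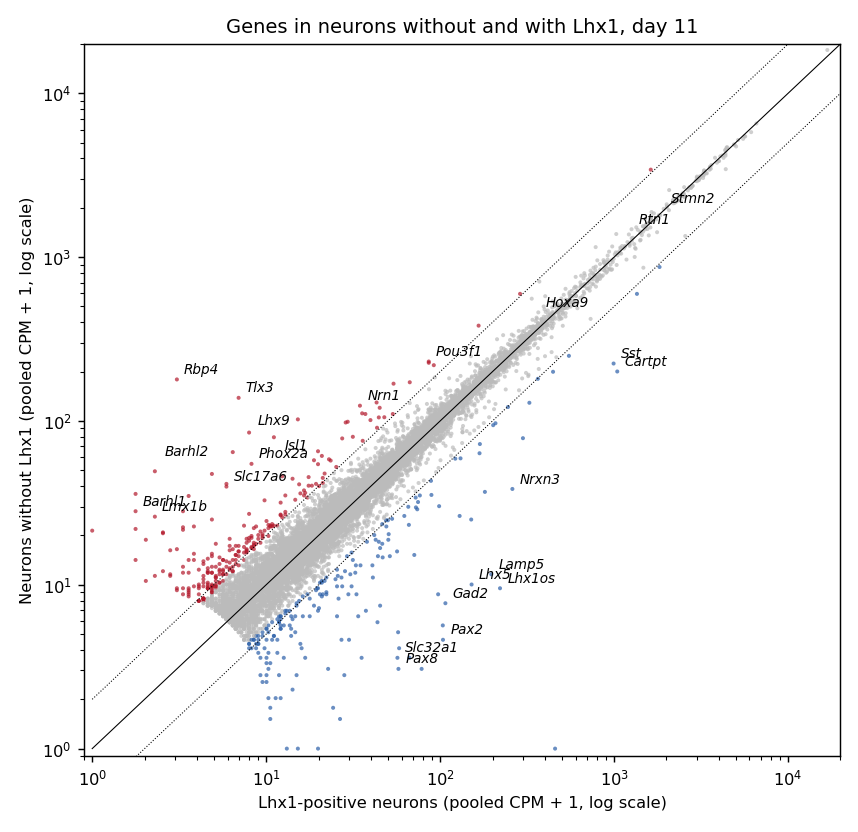
Pooled CPM plus 1 of each tested gene in Lhx1-positive neurons (x axis, log scale) and in neurons without Lhx1 (y axis, log scale); each point is a gene, the solid line marks equal levels, the dotted lines mark 2-fold differences and coloured points passed them. Rtn1 and Stmn2 lie near the solid line, Tlx3, Lhx9, Barhl2 and Slc17a6 above it, and Pax2, Pax8, Lhx5, Gad2 and Slc32a1 below it.

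Hox genes mark position along the trunk. Over all genes tested against the other day 11 cells, 12.6% were at least 2-fold higher in the neurons without Lhx1 and 10.9% were lower. Among Hox genes 7 of 9 in groups 1 to 4 and 9 of 11 in groups 5 to 8 were higher. In groups 9 to 13 it was 6 of 6. None of the 26 passed either limit against the Lhx1-positive neurons, although without the high doublet scores Hoxb1 was lower and Hoxa10 was higher. Against the neural progenitors 1 of 9 genes in groups 1 to 4 was higher (Hoxb2) and 1 lower (Hoxa2), with a median ratio of 1.17. In groups 5 to 8, 6 of 11 were higher, and in groups 9 to 13, 4 of 6, with Hoxc9 and Hoxc10 between the limits. Over all genes 14% were higher than in the progenitors. Hoxa9 was detected in 231 of the 252 neurons at 459 CPM against 366 CPM in the Lhx1-positive neurons, 99.4 CPM in the progenitors and 36.4 CPM in the other cells. Hoxb9 stood at 421 CPM, Hoxc9 at 292 CPM, Hoxc10 at 162 CPM and Hoxa10 at 88.9 CPM. Hoxd10 had 3 UMIs and Hoxa11 had 6, whereas Hoxc11, Hoxd11 and Hoxa13 had none. Of 27 ventral interneuron and motor neuron factors listed 4 had no UMI in these neurons (Evx1, Vsx1, Nkx2-2 and Mnx1), and of the 10 tested against the other day 11 cells 6 were higher, such as Onecut1 (32.8 against 3.73 CPM), and 1, Tbx20, was lower. Of 35 forebrain and midbrain genes listed 11 had no UMI, Otx2 among them, and of the 13 tested 8 were higher and 2 lower. Those 8 include Lhx2, Barhl1 and Barhl2, which the dorsal spinal cord list also holds. En1, used by ventral and midbrain cells, was detected in 126 of the 252 neurons at 62.2 against 86.3 CPM in the Lhx1-positive neurons.

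**Figure D3:**
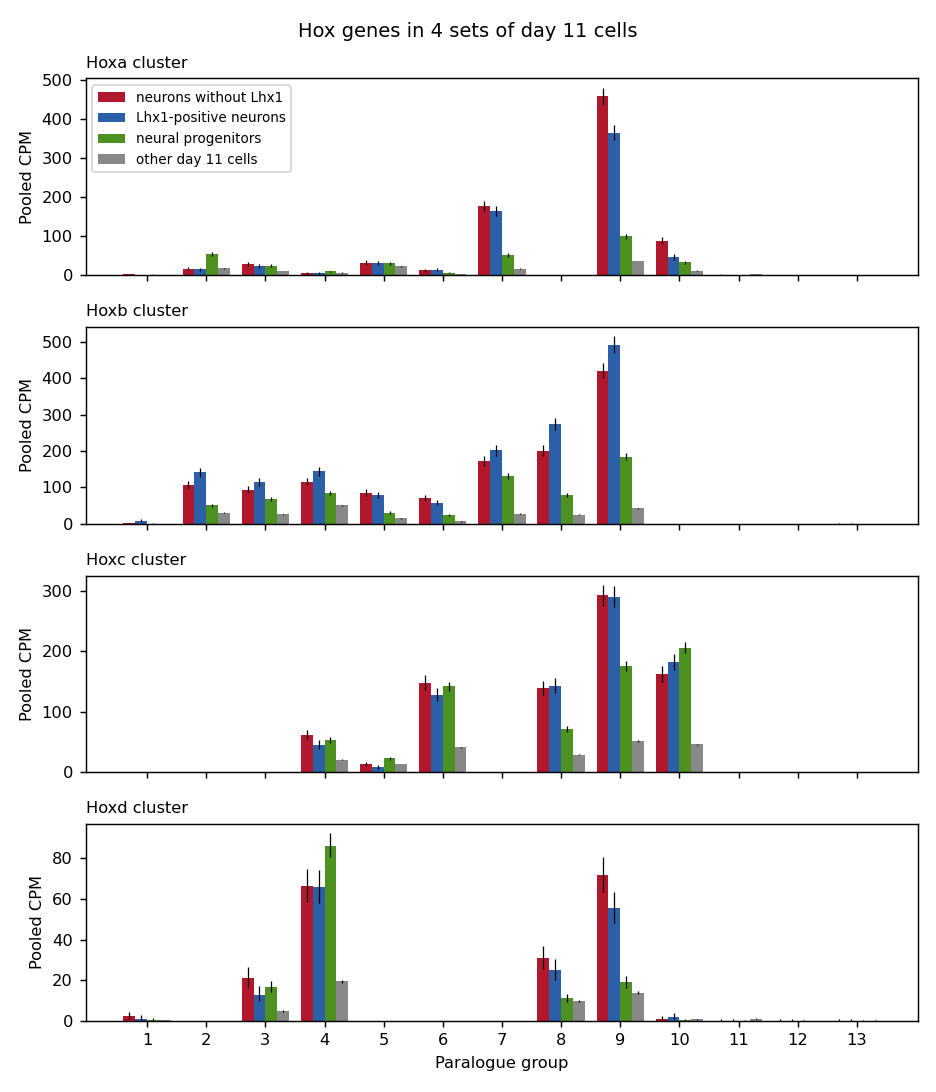
Pooled CPM (y axes, linear, different ranges) of Hox genes by paralogue group (x axis) in the 4 clusters for neurons without Lhx1, Lhx1-positive neurons, neural progenitors and other day 11 cells; bars are levels and lines are 95% Poisson intervals for counting error. Group 9 genes had the tallest bars of the Hoxa, Hoxb and Hoxc clusters in the neurons without Lhx1, and their genes of groups 11 to 13 reached no visible level.

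Tlx3 and the Barhl class factors were then counted in single cells, a division made after the values had been seen. Tlx3 was detected in 118 neurons and at least 1 of Barhl1, Barhl2 and Lhx9 in 80, and 8 neurons held both, which is 6.78% of the former and 10% of the latter. Of the neurons without Tlx3, 53.7% held a Barhl class factor. Without the high doublet scores the counts were 101, 71 and 7. This left 110 neurons with Tlx3 only, 72 with the Barhl class only and 62 with neither, with median depths of 10290, 9968 and 11607.5 UMIs and high doublet scores in 16, 8 and 15.

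Genes that were not used for this division differed between its parts. Lmx1b was detected in 46.4% of the Tlx3 cells, 0 of 72 Barhl class cells and 11.3% of the remaining cells, and Lbx1 in 50.9%, 0 of 72 and 25.8%. For cells with a UMI, a count of 0 of 72 allows a share of up to 4.17% when 3 counts are taken as the limit, and its Clopper-Pearson interval reaches 4.99%. Neither limits the share of cells that express the gene. Prrxl1 was detected in 29.1% and 0 of 72, and Ebf2, a factor of early neurons, in 60.9% and 18.1%. Pou4f1 was detected in 77.3% of the Tlx3 cells, 29.2% of the Barhl class cells and 29.0% of the rest.

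The opposite order was seen for other genes. Lhx2 was detected in 1.82% of the Tlx3 cells and 38.9% of the Barhl class cells, Maf in 21.8% and 79.2%, Pou3f1 in 45.5% and 90.3%, and the predicted gene Gm28050 in 19.1% and 87.5%. Hoxa10 was detected in 43.6% and 76.4% and Hoxc10 in 51.8% and 80.6%, while En1 was found in 49.1% and 51.4%. Slc17a6 was detected in 29.1% and 38.9%, and in 9.68% of the cells with neither. Those cells held Cartpt in 48.4%, Lhx5 in 30.6% and Isl1 in 22.6%. None of Tlx3, Barhl1, Barhl2, Lhx9, Lhx5, Pax2, Pax8, Isl1 and Phox2a was found in 24 of the 252 neurons.

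**Figure D4:**
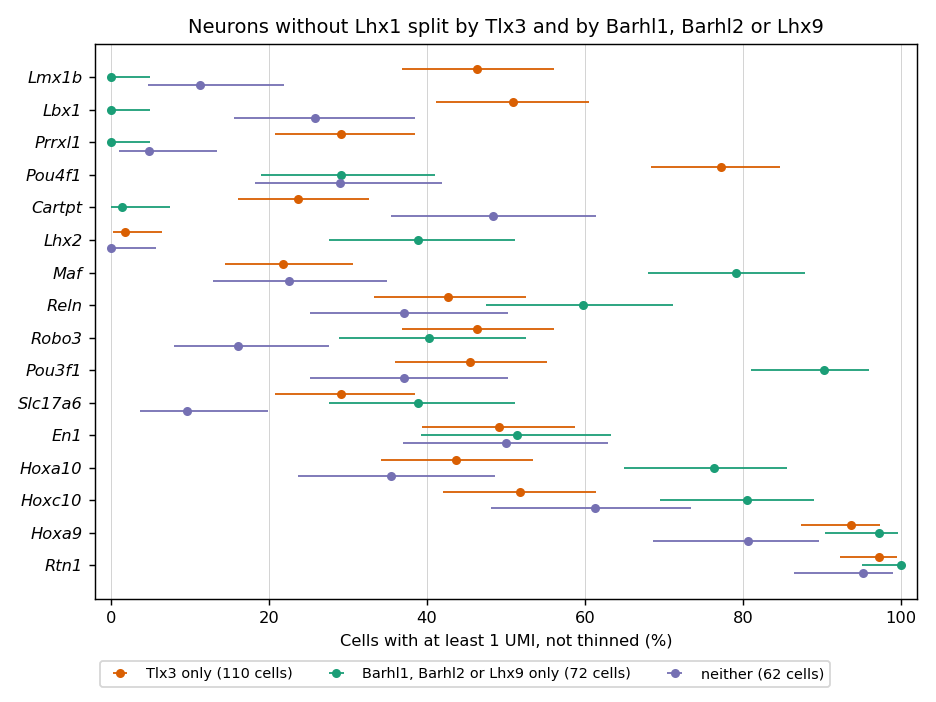
Percent of cells with at least 1 UMI (x axis, not thinned) of selected genes (y axis) in the neurons without Lhx1 that held Tlx3 only, Barhl1, Barhl2 or Lhx9 only, or neither; points are shares and lines are 95% Clopper-Pearson intervals for counting error. Lmx1b, Lbx1 and Prrxl1 were at 0 of 72 in the Barhl class cells, and Rtn1 was above 95% in all 3 parts.

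Clustering of the 252 neurons alone gave 6 sub-groups, numbered by size. Sub-group 1 (69 cells) was led by Ppp1r14a, Npff, Ppp1r17, Neurod4, Tpm2 and Btbd17, with Tlx3 at 424 CPM. Sub-group 3 (43 cells) was led by Scg2, Syt13, Gap43, Chl1, Sncg and Ajap1, with Tlx3 at 201 CPM and Lmx1b at 80.8 CPM. Both held Tlx3, but Neurod4, a factor of newly born neurons, had 84.4 CPM in the former and no UMI in the latter, and Gap43, a growth cone protein, was at 263 and 2166 CPM.

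The Barhl class also fell into separate sub-groups. Sub-group 4 (38 cells) was led by Lhx9, Kctd4, Gm45159, Rassf10, Zcchc12 and Anks1b, with Barhl2 at 323 CPM and Slc17a6 at 119 CPM. Sub-group 5 (29 cells) had Lhx2, Rxrg, Gm28050, Nrn1 and Ripor2 among its leading genes, with Lhx2 at 394 CPM against 15.1 CPM in sub-group 4. Sub-group 6 (23 cells) was led by Lamp5, Cartpt, Pnoc, Gm12688, Gm27199 and Lhx5. There Lhx5 was detected in 12 cells at 83.3 CPM and Lhx1os was at 66.6 CPM, although the choice required no Lhx1 UMI.

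Sub-group 2 (50 cells) stood apart. Its leading genes were Myl7, Top2a, Myl3, Cenpf, Myl9 and Col3a1, which belong to cardiac muscle, division and connective tissue. Its median depth was 26713 UMIs, 38 of its 50 cells had a high doublet score, 33 held markers of another cell type, and it held 44.0% of all UMIs of the 252 neurons. It received no cell type name. With a clustering resolution of 0.5 the neurons fell into 4 sub-groups and with 1.5 into 8.

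**Figure D5:**
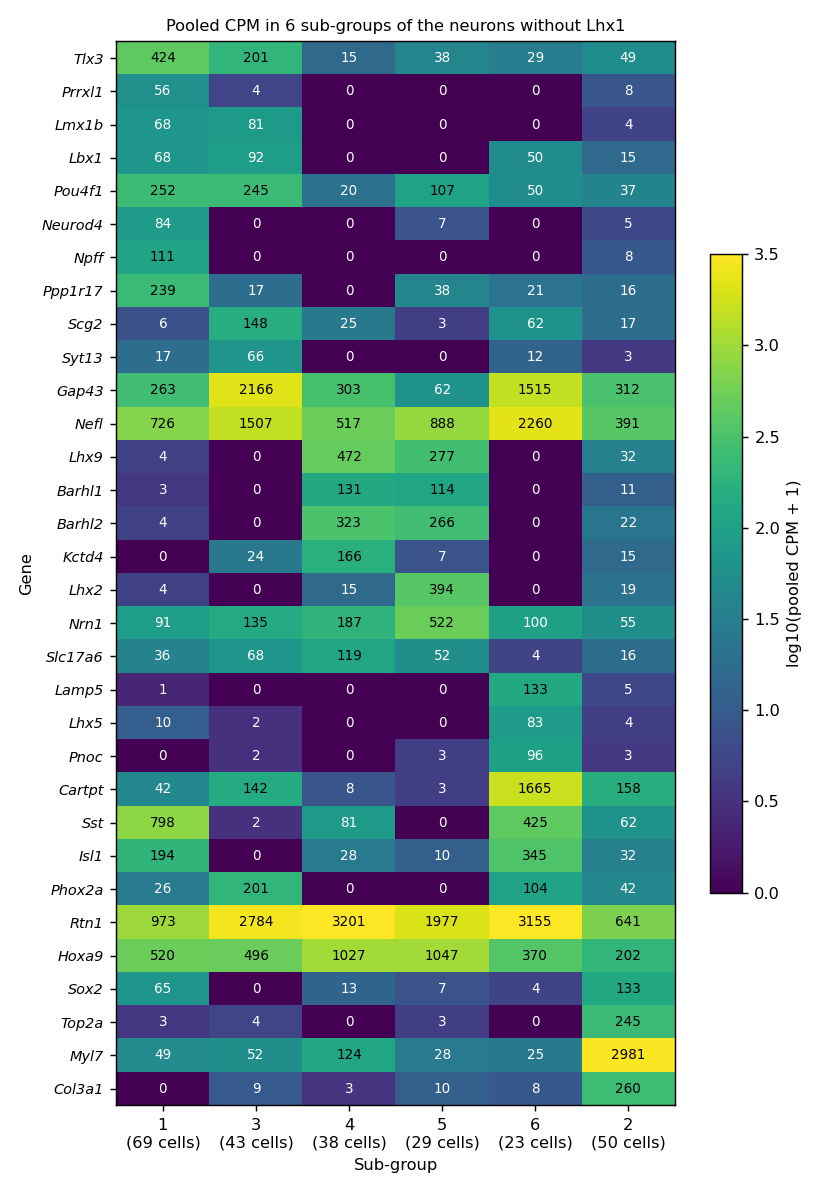
Pooled CPM (numbers) of selected genes (y axis) in 6 sub-groups of the neurons without Lhx1 (x axis, with cell numbers), coloured by log10 of CPM plus 1. Tlx3 was highest in sub-groups 1 and 3, Lhx9 and Barhl2 in sub-groups 4 and 5, Lhx5 in sub-group 6 and Myl7 in sub-group 2.

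Cells that passed the same choice were rare on earlier days. They numbered 19 of 7202 cells at day 4 (0.264%), 16 of 7408 at day 5 (0.216%) and 2 of 5850 at day 6 (0.0342%), at median depths of 25335, 28400.5 and 25581 UMIs over all cells, none of them held all 4 genes, and after thinning to 5000 UMIs 2, 0 and 1 remained. In the cells chosen at those days Rtn1 was at 8.61, 28.7 and 6.15 CPM. Sox2 in them was at 138, 78.7 and 123 CPM against 73.6 CPM at day 11, and no UMI of Nhlh2, a factor of young neurons that stood at 247 CPM at day 11, was found. Day and library cannot be told apart, since each day is 1 library. The day 11 library shared 18, 23 and 16 cell barcodes with those of days 4, 5 and 6, of which 1, 1 and 0 belonged to the neurons without Lhx1.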

How the data were processed

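Single-cell RNA was measured in 4 libraries (days 4, 5, 6 and 11, 1 per day). The authors deposited UMI counts per gene and cell, used here as deposited. The labels list Cell Ranger 3.1.0 and build mm10, and the day 11 matrix header names version 6.0.1.

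The members and gene lists were chosen with earlier results of these data known. Cells needed at least 2000 UMIs and a mitochondrial share under 20%. Levels are CPM over the summed UMIs of a set, with exact Poisson intervals, shares have Clopper-Pearson intervals, and ratios have conditional binomial intervals at 95%. Genes needed a mean of the 2 levels of at least 5 CPM, and a ratio of 2 or 0.5 counted as different. No test was run, with 1 library per day. Where a set had no UMI, 3 counts set its limit. Shares were also computed after thinning every cell to 5000 UMIs at random, leaving out shallower cells.

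Doublets were scored with a Scrublet-like method with exact neighbours, and the highest 8% were marked (704 cells, because of tied scores) but kept, and left out in an alternative. Genes named come from 36 lists of 611 genes, the 12 highest and 12 lowest ratios of each comparison among genes with 50 CPM or more (mitochondrial and ribosomal protein genes left out), and the 6 leading genes of each sub-group. A few others were named for cells and sequences after their values were seen. Sub-groups used 1000 variable genes, 15 principal components, 15 neighbours and Leiden. The ratio calls were tested on simulated data with known folds. Versions were Python 3.11.15, numpy 2.4.6, scipy 1.17.1, pandas 2.3.3, scikit-learn 1.9.0, leidenalg 0.10.2 and matplotlib 3.10.9. Alternatives changed the limits, depth, doublets, filter and pseudocount, and their effect is given at the end. Some items are not reported here.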

Additional observations from a re-analysis of the deposited data

How the results depend on the processing

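No paired analysis was possible because each day is 1 library and the days share only replicate number 1. The share of neurons without Lhx1 was 4.10% with 2 of 4 neuronal genes, 2.20% with 4 of 4, and 6.77% among cells without markers of another type. Against the other cells, higher genes were 683 with a filter of 20 CPM and 714 with a pseudocount of 10 CPM, from 1340, and lower genes were 580 with 2 of 4 neuronal genes, 517 at 20 CPM, 1972 at 1 CPM and 444 with the pseudocount, from 1163. Against the Lhx1-positive neurons, higher genes were 421 with the choice on thinned cells, 386 without high doublet scores, 61 at 20 CPM, 704 at 1 CPM, 61 with the pseudocount and 456 with thinned counts, from 240. Lower genes there were 302 with 4 of 4 genes, 75 at 20 CPM, 592 at 1 CPM, 71 with the pseudocount and 384 with thinned counts, from 195. Against the progenitors, higher genes were 651 at 20 CPM, 2429 at 1 CPM and 697 with the pseudocount, from 1444, and lower genes were 400, 371 and 1169 at 20 CPM, with the pseudocount and with thinned counts, from 736. On days 4 to 6 together, 528 cells passed with 2 of 4 genes, 0 with 4 of 4 and 3 at equal depth, from 37. Ratios that turned direction without the high doublet scores were, against the Lhx1-positive neurons, Ctla2a 2.24, Nppa 1.23, Lum 0.512 and Th 0.683, and, against the progenitors, Nppa 1.03, Fcer1g and Tyrobp 2.91 each, Myog 0.874, and Dcn and Myh3 0. With mean CPM per cell, Emcn 0.875, Epcam 0.872, Kdr 0.850, Pecam1 0.811 and Tie1 0.669 turned against the progenitors. The cause was not tested. Genes of few UMIs limit what the counts show.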
